A study of Rattus norvegicus with 12 samples.

Results

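The genes described here drive the cell division cycle and DNA replication. They are 44 genes chosen by name, from cyclins and their kinases to the replication helicase and the spindle checkpoint. Of these, 43 had at least 1 probe under their name on the array, with 65 probes among 41012 distinct probes in all. The brightest probe stood for each gene. The mitotic kinase gene Aurka had no probe under that symbol, and a probe annotated with its older symbol Stk6 is given separately below.

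Liver RNA of Fischer 344 rats aged 12 weeks was measured on 12 Agilent arrays, each of which compared 2 RNAs, one carrying the red dye Alexa 647 and one the green dye Alexa 555. The groups were hypophysectomised males and females, hypophysectomised males given growth hormone (GH), and intact, untreated males and females. Hypophysectomy is the surgical removal of the pituitary, the source of GH and of several other hormones. The males given 1 GH injection were killed 30, 60 or 90 min later, and the males given 2 injections received them 3 or 4 h apart. Most RNAs were pools of 3 to 4 livers, with different pools on the 2 arrays of a comparison. The GH RNAs were 1 pool of 4 livers after 1 injection and 1 pool of 5 livers after 2 injections, each used on both of its arrays. On replicate 1 of the 1-injection comparison the title names the GH injection but the treatment label of the treated channel gives hypophysectomy alone, and the title was followed. Each of the 6 comparisons had 2 arrays with the dyes swapped, so every value rests on 2 arrays. For the GH pools the 2 arrays are repeat measurements of the same RNA, and their p-values leave out the spread between animals on the treated side.

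Cells enter the cycle when D-type and E-type cyclins activate their kinases in G1 and inactivate the retinoblastoma protein, which releases the E2F transcription factors. The Mcm helicase is loaded at replication origins before DNA synthesis begins, deoxynucleotides are made, and DNA is copied. The kinase Cdk1 with cyclins A and B drives mitosis, and the anaphase-promoting complex ends it by marking those cyclins for destruction. In the adult liver most hepatocytes rest outside the cycle and return to it after loss of liver tissue.

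Values are log2 ratios of the first-named RNA over the other, so that 1 is a 2-fold difference, and ± is the standard error of the limma fit over all 12 arrays. A gene was called when its p-value, adjusted by the Benjamini-Hochberg method over all probes tested in the comparison, was under 0.05. A probe entered the test of a comparison where 1 or both RNAs exceeded background clearly on each of the 2 arrays. Cdc6, which loads the helicase at origins, was too dim to be tested in any comparison. Mcm5 was tested in 2 of them. Between 58.4% and 71.1% of probes exceeded background clearly in a given channel, and no spot was saturated. All 12 hepatocyte markers, among them albumin (Alb) and transferrin (Tf), were measured in every comparison. Across the genes described here the 2 arrays of a comparison correlated with r between 0.63 and 0.94. Over all probes, the arrays of hypophysectomised males against hypophysectomised females stood apart with r = 0.08, against 0.62 to 0.87 in the other comparisons. As the RNA comes from whole liver, fewer dividing cells and less RNA per cell cannot be told apart.

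The mitotic and spindle genes fell in both sexes after hypophysectomy, and replication genes were divided. In hypophysectomised against intact males, 30 of 42 tested genes fell and 2 rose, where 37.5% of all probes tested were called, 19% higher and 18.5% lower. Their median log2 ratio was -0.79, against 0.01 over all probes, and 19 of them were called and at least 2-fold lower. In hypophysectomised against intact females, 26 of 41 fell and 2 rose, where 36.3% of all probes tested were called, 17.9% higher and 18.5% lower. Their median was -0.51, against 0.00 over all probes, with 15 at least 2-fold lower. The share of all probes past the 2-fold limit was not counted in either sex. With arrays centred on their median in place of loess, 17 genes were called in males and 12 in females, all lower. Of all probes, 345 were then called in males, 121 of them higher, and 370 in females, 143 of them higher. The plot of each array by gene shows both sexes.

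**Figure D1:**
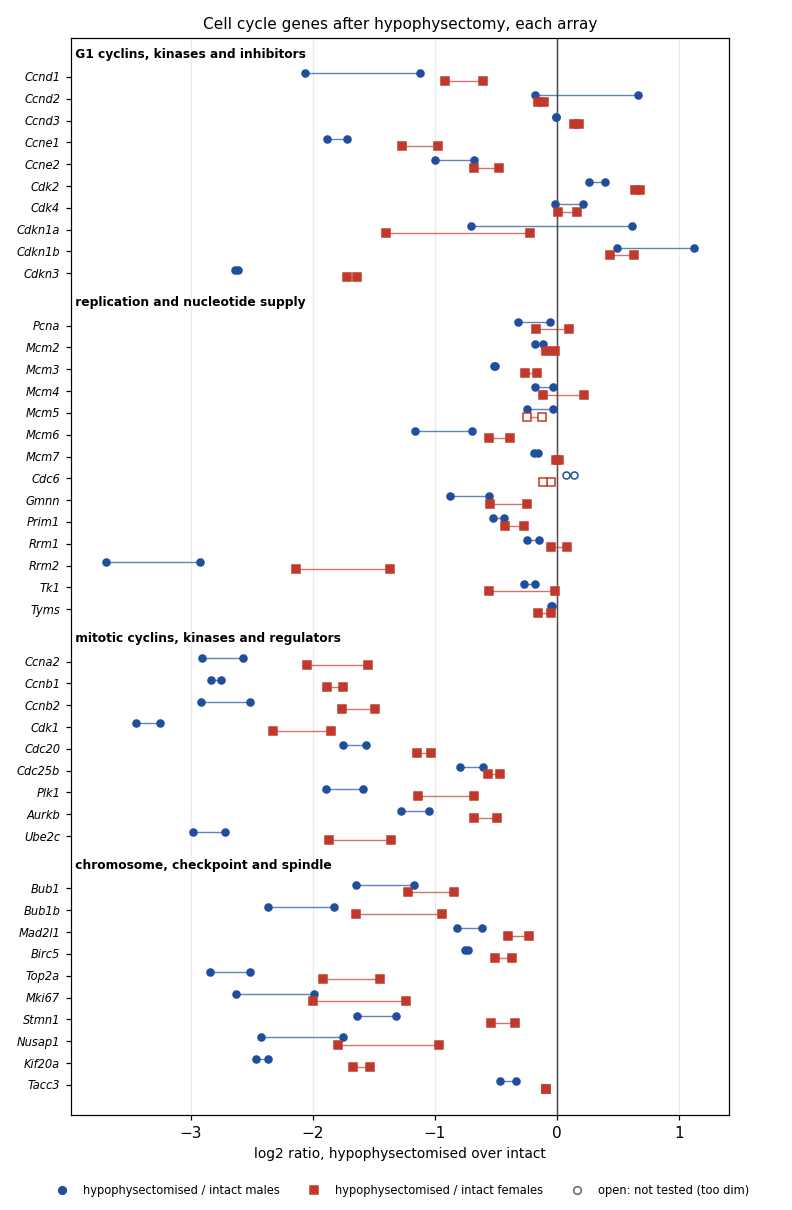
Log2 ratios of each gene on each array (horizontal axis, hypophysectomised over intact), with males as circles and females as squares, the 2 arrays of a comparison joined by a line, and open symbols for genes too dim to be tested. The 9 mitotic cyclins, kinases and regulators lie below 0 on every array, between -3.45 and -0.46, while the replication genes spread from Rrm2, at -3.69 on 1 male array, to values near 0.

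All 9 mitotic cyclins, kinases and regulators fell in both sexes, with medians of -2.72 in males and -1.61 in females. Cdk1, the kinase that starts mitosis, had log2 ratios of -3.45 and -3.25 on the 2 male arrays. Its fitted value was -3.35 ± 0.11 (adjusted p = 1.01e-06), a 10.2-fold lower level in hypophysectomised than in intact males. The mean normalised log2 intensity of its probe was 7.58 in hypophysectomised males and 10.93 in intact males. In females it had -1.85 and -2.32, with a fitted value of -2.09 ± 0.11 (adjusted p = 8.98e-06), or 4.25-fold lower. Both male arrays thus lay below both female arrays.

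The cyclins that pair with Cdk1 followed the same order of sexes. Ccnb1 had -2.83 and -2.75 in males and -1.75 and -1.88 in females. Ccnb2 had -2.51 and -2.92 in males and -1.49 and -1.76 in females. Cyclin A2 (Ccna2), which acts in both S phase and mitosis, had -2.57 and -2.91 in males and -1.55 and -2.04 in females. No female array of these 3 cyclins came as low as a male array. Their fitted values were -2.79 ± 0.08, -2.72 ± 0.08 and -2.74 ± 0.11 in males, and -1.81 ± 0.08, -1.63 ± 0.08 and -1.80 ± 0.11 in females. A second, dimmer Ccna2 probe had smaller values, -1.51 ± 0.10 in males and -0.72 ± 0.10 in females, both called.

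Genes that switch mitosis on and off fell with them. Ube2c, the ubiquitin-conjugating enzyme of the anaphase-promoting complex, had -2.71 and -2.98 in males and -1.36 and -1.87 in females. Cdc20, which activates that complex, had -1.75 and -1.56 in males and -1.15 and -1.03 in females. Polo-like kinase Plk1 had -1.58 and -1.89 in males and -0.68 and -1.14 in females. The fall was smallest in this group for Cdc25b, a phosphatase that activates Cdk1, with fitted values of -0.70 ± 0.08 in males and -0.51 ± 0.08 in females. Aurkb, the kinase of the chromosomal passenger complex, was not well above background on either array in hypophysectomised males. Its measured level there, 2.24-fold lower than in intact males (adjusted p = 9.78e-05 by limma), thus rests on a dim signal. In females Aurkb had -0.59 ± 0.10. The Stk6 probe, outside the rule by its name, had -1.02 ± 0.05 in males and -0.49 ± 0.05 in females.

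The bases just before the start site are shown for a few genes picked by hand, which do not stand for the rest. They are Cdk1, Ccnb1, Ccnb2 and Plk1, which fell, the helicase gene Mcm6, which fell less, and Cdk4, which was not called. The CCAAT box is the site of the factor NF-Y, and TTTGAA is the core of the cell cycle homology region found in many mitotic promoters. Of the 44 genes, 35 matched an entry in the RefSeq promoter table (build GRCr8). Each stretch holds the 120 bases before the start, 5′ to 3′ on the gene's strand, with matches in capitals.
Cdk1, chr20:19265173-19265292, plus strand: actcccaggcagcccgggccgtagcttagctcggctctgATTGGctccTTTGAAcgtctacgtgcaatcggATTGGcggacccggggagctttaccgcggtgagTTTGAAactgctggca
Ccnb1, chr2:33655226-33655345, minus strand: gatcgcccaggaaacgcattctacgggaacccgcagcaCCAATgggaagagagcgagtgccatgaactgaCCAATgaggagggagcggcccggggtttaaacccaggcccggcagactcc
Ccnb2, chr8:79981659-79981778, minus strand: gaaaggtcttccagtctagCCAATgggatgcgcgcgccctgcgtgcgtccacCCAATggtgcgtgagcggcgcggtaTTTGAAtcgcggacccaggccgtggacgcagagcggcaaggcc
Plk1, chr1:186147538-186147657, plus strand: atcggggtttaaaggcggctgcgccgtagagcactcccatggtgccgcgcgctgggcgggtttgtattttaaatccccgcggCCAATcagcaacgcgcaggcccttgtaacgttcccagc
Mcm6, chr13:42404353-42404472, minus strand: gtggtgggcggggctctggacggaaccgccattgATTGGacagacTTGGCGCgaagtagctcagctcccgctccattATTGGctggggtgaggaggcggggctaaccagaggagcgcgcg
Cdk4, chr7:64771333-64771452, plus strand: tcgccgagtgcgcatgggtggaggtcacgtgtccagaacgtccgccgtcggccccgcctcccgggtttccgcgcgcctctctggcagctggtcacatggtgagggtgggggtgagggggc

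Both strands of the 250 bases before each start were searched for CCAAT and for TTTGAA. The search also took in TTCGAA, a second form of the homology region. For the E2F site it used TTCCCGC, and in addition the form TTGGCGC. On the opposite strand CCAAT reads ATTGG, as in Cdk1 and Mcm6, and TTCGAA reads the same on both strands. CCAAT stood in 24 of the 35 matched promoters (68.6%), against 34.3% of the 27457 promoters in the table. At least 2 copies stood in 15 of the 35 (42.9%), against 9.77% of all promoters. TTTGAA stood in 7 of 17 matched promoters of the mitotic, chromosome and spindle genes (41.2%), in 1 of 11 replication promoters (9.09%) and in 16% of all promoters. TTCGAA stood in 14.3% of the matched promoters, against 1.5% of all, and TTCCCGC in 11.4%, against 3.58%. TTGGCGC stood in 4 of 11 replication promoters (36.4%), in 3 of 17 promoters of the mitotic, chromosome and spindle genes (17.6%), in none of 7 matched G1 promoters and in 1.9% of all promoters. CCAAT stood in 11 of 14 matched promoters of genes at least 2-fold lower in hypophysectomised males (78.6%). It stood in 13 of the 20 other matched promoters of genes tested there (65%). Those include Mcm7, not called, and Cdkn1b and Cdk2, called higher. Bub1 and Mad2l1, which fell, had none of the searched letters. In the Cdk1 stretch CCAAT and TTTGAA both occur 2 times, and the Cdk4 stretch holds none of the searched letters. These matches describe the letters alone. No binding was measured.

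All 10 chromosome, checkpoint and spindle genes fell in males, and 9 of 10 fell in females, with medians of -1.78 and -1.16. Topoisomerase Top2a, which untangles sister chromosomes, had -2.51 and -2.84 in males and -1.45 and -1.92 in females. Kif20a, a kinesin of the central spindle, had -2.37 and -2.46 in males and -1.53 and -1.67 in females. Mki67, the Ki-67 antigen used to mark dividing cells, had -1.99 and -2.63 in males and -1.23 and -1.995 in females, so that the lower female array and the higher male array nearly met. Among the spindle checkpoint genes, Bub1b had -2.10 ± 0.14 in males and -1.30 ± 0.14 in females, Bub1 had -1.41 ± 0.12 and -1.03 ± 0.12, and Mad2l1 had -0.72 ± 0.06 and -0.31 ± 0.06. Birc5, the survivin subunit of the passenger complex, had -0.74 ± 0.07 in males and -0.43 ± 0.07 in females.

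Stmn1, which destabilises microtubules, had -1.32 and -1.64 in males and -0.34 and -0.54 in females, and its fitted values were -1.48 ± 0.15 and -0.44 ± 0.15. Nusap1, a spindle-binding protein, had -2.09 ± 0.14 in males and -1.38 ± 0.14 in females, and it was above background on 1 of 2 arrays in hypophysectomised livers of either sex. Tacc3, which stabilises spindle fibres, had -0.40 ± 0.06 in males (adjusted p = 0.00188) and -0.09 ± 0.06 in females, where it was not called (adjusted p = 0.305).

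Replication and nucleotide supply genes split. Of 13 tested in males 7 fell, and of 12 tested in females 4 fell, with medians of -0.20 and -0.16. Rrm2, the regulated subunit of ribonucleotide reductase, stood far from the rest with -2.93 and -3.69 in males and -1.37 and -2.14 in females. Its fitted values were -3.31 ± 0.16 in males (adjusted p = 6.31e-06), a 9.91-fold lower level, and -1.75 ± 0.16 in females (adjusted p = 1.48e-04). With the scanner's processed signals in place of the background-corrected ones, Rrm2 was at -2.76 in females, and with all its probes averaged it was at -1.09. A second, dimmer Rrm2 probe had -1.26 ± 0.08 in males and -0.44 ± 0.08 in females, both called. Its partner subunit Rrm1 had -0.20 ± 0.06 in males (adjusted p = 0.0309) and 0.02 ± 0.06 in females. The 2 subunits of the same enzyme thus differed in the size of their change on all 4 arrays.

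Among the 6 Mcm genes, whose products form the helicase, Mcm6 fell by 0.93 ± 0.11 in males and by 0.47 ± 0.11 in females, and Mcm3 fell by 0.51 ± 0.07 and by 0.21 ± 0.07. Mcm2, Mcm4 and Mcm7 were not called in either sex and had values between -0.17 and 0.05. Mcm5 had -0.14 ± 0.06 in males, where it was not called, and was too dim to test in females. Primase Prim1, which lays down the RNA primers of DNA synthesis, had -0.48 ± 0.07 in males and -0.35 ± 0.07 in females, and both were called. The sliding clamp Pcna had -0.19 ± 0.06 in males (adjusted p = 0.0303) and -0.04 ± 0.06 in females, and geminin (Gmnn), which blocks reloading of the helicase, had -0.72 ± 0.15 (adjusted p = 0.00695) and -0.39 ± 0.15 (adjusted p = 0.0732). Thymidine kinase Tk1 and thymidylate synthase Tyms, which both supply thymidine nucleotides, were not called in either sex and lay between -0.29 and -0.04.

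The G1 genes moved both ways. Of 10 tested, 4 fell and 2 rose in each sex. Cdkn3, a phosphatase that acts on cyclin-dependent kinases, had -2.64 and -2.61 in males and -1.72 and -1.63 in females. Cyclin E1 (Ccne1) had -1.88 and -1.72 in males and -0.97 and -1.27 in females. Cyclin E2 (Ccne2) had -0.84 ± 0.08 in males and -0.58 ± 0.08 in females. Cyclin D1 (Ccnd1), which couples growth signals to the cycle, had arrays far apart in males, at -2.06 and -1.12, and -0.91 and -0.60 in females. Its fitted values were -1.59 ± 0.25 (adjusted p = 0.0017) and -0.76 ± 0.25 (adjusted p = 0.043).

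The same 2 genes were called higher in males and in females. The inhibitor Cdkn1b (p27), which holds cells out of S phase, had 1.12 and 0.49 in males and 0.63 and 0.44 in females, with fitted values of 0.81 ± 0.11 and 0.53 ± 0.11. In females the call was lost without either replicate (adjusted p = 0.0733 and 0.0903). A second, dimmer probe of Cdkn1b was called in neither sex, at 0.24 ± 0.12 in males and 0.12 ± 0.12 in females. Cdk2, a kinase that p27 inhibits, had 0.39 and 0.26 in males and 0.68 and 0.64 in females, with fitted values of 0.33 ± 0.11 (adjusted p = 0.0418) and 0.66 ± 0.11 (adjusted p = 0.00214). The Cdk2 value in males was 0.12 without replicate 1 and 0.53 without replicate 2, and was not called without replicate 1 or with all its probes averaged (0.21). The male call was also lost without a dye term, with median centring, and with the scanner's processed signals or the authors' value table. It was lost too with a background offset of 0, without the dim-probe filter, with the replicate number as a block and with the arrays fitted alone. In females the Cdk2 value was 0.51 and not called without replicate 1 (adjusted p = 0.0677). Cdk4, Ccnd2 and Ccnd3 lay between -0.13 and 0.24 in both sexes and were not called. The inhibitor Cdkn1a (p21) was the most variable, with -0.70 and 0.61 in males and -1.40 and -0.22 in females, and was not called.

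The fall was larger in males than in females for every one of the 26 genes called lower in both sexes, and 4 more (Pcna, Gmnn, Rrm1 and Tacc3) were called lower in males and not called in females. Of these 4, Rrm1 (-0.23 ± 0.06) and Tacc3 (-0.32 ± 0.06) passed the test of the difference given next. Across the 41 genes tested in both sexes the male and female log2 ratios had r = 0.96, given as a description, since these comparisons use different RNAs but the same probes and the same pair of slides. The difference between the sexes was tested in the same fit over the 4 comparisons among the 4 RNAs. It is the mean of the male minus female change with hypophysectomy and of the hypophysectomised minus intact male-to-female ratio. The fit takes the arrays as independent, although these comparisons share RNA groups. Deviations of same-numbered arrays from their comparison's mean correlated between -0.49 and 0.86 among the 4 comparisons. The p-values of this difference do not allow for that and are approximate. Of 39 genes tested, 22 had a more negative change in males, where 13.5% of all probes tested were called, 6.48% higher and 7.01% lower. None was called with a more positive change in males, and Cdkn1b (0.26 ± 0.11) had an unadjusted p under 0.05 in that direction. With replicate 1 of the male arrays left out Ccnd2 (0.56) and Cdkn1a (1.01) were called in that direction, and with replicate 2 left out Cdkn1b (0.38). Over the 8 arrays left out in turn the count of genes called lay between 17 and 27, and with median centring it was 2.

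Rrm2 had the largest difference, at -1.68 ± 0.16 (adjusted p = 3.95e-04). It was followed by Cdk1 at -1.33 ± 0.11, Ube2c at -1.27 ± 0.08, Ccnb2 at -1.12 ± 0.08, Cdkn3 at -1.10 ± 0.06 and Ccnb1 at -1.09 ± 0.08. Stmn1 had -1.08 ± 0.15, close to Ccna2 at -1.06 ± 0.11. By role, 7 of 8 mitotic genes, 8 of 9 chromosome and spindle genes, 4 of 12 replication genes and 3 of 10 G1 genes were called. Bub1, with -0.44 ± 0.12, missed the threshold (adjusted p = 0.0531), as did Cdc25b, with -0.23 ± 0.08 (adjusted p = 0.0986).

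**Figure D2:**
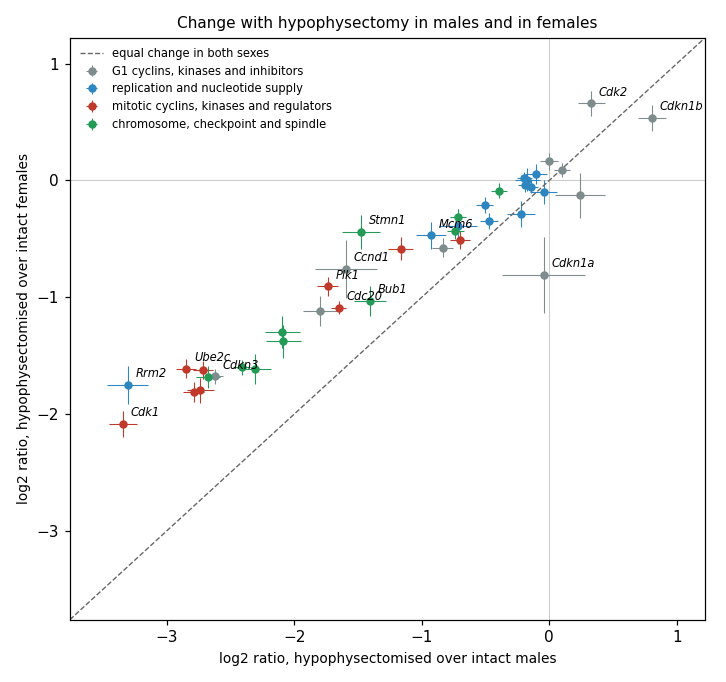
Fitted log2 ratios of each tested gene in hypophysectomised over intact males (horizontal axis) and in hypophysectomised over intact females (vertical axis), coloured by role, with standard errors as bars and a dashed line of equal change. All 26 genes called lower in both sexes lie above the line, with Cdk1 at -3.35 in males and -2.09 in females.

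In intact animals many of the mitotic and spindle genes were higher in males than in females. Of 42 tested genes 21 were higher in intact males and none was lower, where 15.5% of all probes tested were called, 8.07% higher and 7.42% lower. At an unadjusted p under 0.05, 24 were higher and 0 lower. Their median log2 ratio was 0.33, against -0.01 over all probes, and 6 were called and at least 2-fold higher. The share of all probes was not counted at the unadjusted limit or at the 2-fold limit. Without replicate 1 the count was 13, and with median centring it was 1.

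Rrm2 had 1.69 and 1.72 on the 2 arrays of intact males over intact females, a 3.27-fold higher level in males (adjusted p = 2.60e-04). Cdk1 had 1.24 and 1.08, Ube2c had 1.12 and 1.13, and Cdkn3 had 1.12 and 1.10. Stmn1 had 1.33 and 0.97, and Ccnb1 had 1.13 and 1.05. The 2 arrays of each of these genes lay on the same side of 0 and at least 0.97 above it. Kif20a had 0.95 ± 0.06, Nusap1 0.93 ± 0.14, Ccnb2 0.91 ± 0.08, Ccna2 0.88 ± 0.11 and Top2a 0.86 ± 0.10.

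By role, 8 of 9 mitotic genes and 9 of 10 chromosome and spindle genes were higher in intact males, with Cdc25b (0.09 ± 0.08) and Tacc3 (0.18 ± 0.06) not called. Of 13 replication genes Rrm2 and Pcna (0.21 ± 0.06, adjusted p = 0.0437) were called. The 6 Mcm genes lay between -0.04 and 0.32. Of 10 G1 genes Cdkn3 and Ccne1 (0.49 ± 0.13, adjusted p = 0.0385) were called, and Cdkn1b and Ccnd1 had -0.10 ± 0.11 and 0.34 ± 0.25.

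Between hypophysectomised males and hypophysectomised females no gene of 39 was called by limma, where 0.949% of all probes tested were called, 0.53% higher and 0.419% lower. At an unadjusted p under 0.05, 3 genes were higher and 5 lower in males. The share of all probes at that unadjusted limit was not counted. The median log2 ratio was -0.12. Rrm2 had -0.11 and -0.09 on the 2 arrays, with a 95% interval of -0.47 to 0.28. Cdk1 had -0.38 and -0.09, with an interval of -0.49 to 0.02. Ube2c had -0.26 and -0.09, with an interval of -0.36 to 0.00. In intact animals the intervals of these 3 genes had been 1.33 to 2.08, 0.90 to 1.41 and 0.95 to 1.31, all above those after hypophysectomy. These genes were among those with the largest values in intact animals and do not stand for the 39. How many of the 39 had separate intervals was not counted.

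The highest value among hypophysectomised animals was that of Cdkn1a, with 1.12 and 1.28 on the 2 arrays and a fitted 1.20 ± 0.32, which was not called (adjusted p = 0.158). It was called at 1.24 when the ratios were made to close around the 4 RNAs (adjusted p = 0.0368). Ccnb2 was called with the scanner's processed signals, at -0.66 (adjusted p = 0.0256). These comparisons share their RNAs with those above. The sum of the 4 ratios around the 4 RNAs, which is 0 without error, had a median of 0.06 and ranged from -0.10 to 0.31 over the 39 genes.

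**Figure D3:**
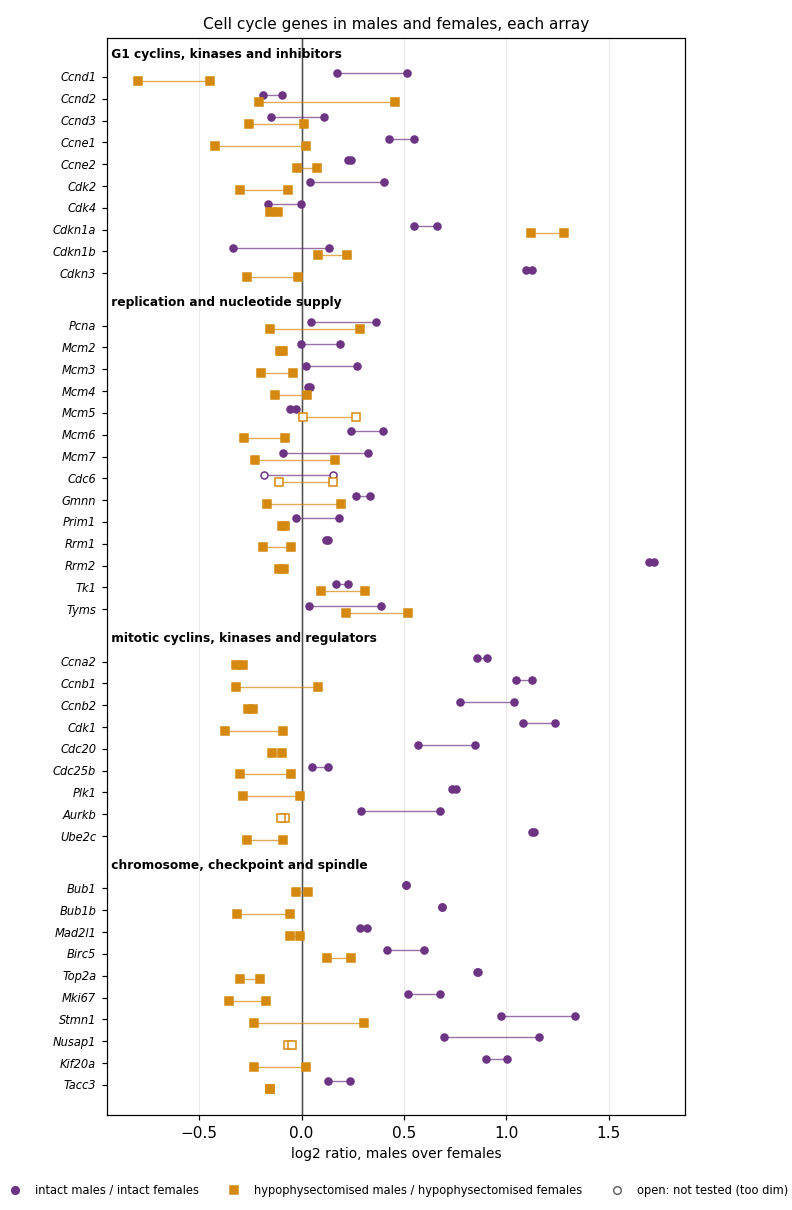
Log2 ratios of males over females on each array (horizontal axis) in intact rats (circles) and in hypophysectomised rats (squares), with the 2 arrays of a comparison joined by a line and open symbols for genes too dim to be tested. Rrm2 lies at 1.69 and 1.72 in intact rats and at -0.11 and -0.09 in hypophysectomised rats.

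One GH injection into hypophysectomised males was followed by higher levels of part of the mitotic genes. Of 40 tested genes 9 rose and 1 fell, where 14.3% of all probes tested were called, 7.49% higher and 6.79% lower. Their median log2 ratio was 0.13, against 0.00 over all probes, and the largest rise was below 2-fold. Of 8 tested mitotic genes 5 rose, of 10 chromosome and spindle genes 3 rose and 1 fell, and of 10 G1 genes 1 rose. No replication gene of 12 was called, and the unadjusted p was under 0.05 for 3 of them, Pcna (0.14), Mcm3 (0.18) and Tk1 (-0.33). All probes together were not counted at that unadjusted limit.

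Mki67 had 0.99 and 0.95 on the 2 arrays after 1 injection, with a fitted value of 0.97 ± 0.13 (adjusted p = 0.00223). Ccna2 had 0.59 and 0.80, and Cdk1 had 0.68 on both. Both arrays of all 3 lay above 0. Ube2c had 0.68 and 0.47, Top2a had 0.49 and 0.61, and Ccnb2 had 0.51 and 0.46. Smaller values were called for Kif20a (0.36 ± 0.06), Ccnb1 (0.36 ± 0.08) and Cdkn3 (0.24 ± 0.06). Birc5 fell, with -0.27 and -0.21 (adjusted p = 0.0493). Among other settings, the Birc5 call was lost without a dye term, with the scanner's processed signals, without the dim-probe filter and with the replicate number as a block.

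These calls rest on both arrays. Without replicate 1 the calls were those of Mki67 and Ccna2, and without replicate 2 or with median centring limma called no gene. Without replicate 2 there was an adjusted p of 0.0844 for Mki67 and 0.132 for Cdk1. With the scanner's processed signals the values were larger, at 1.72 for Mki67, 1.29 for Ccna2, 1.23 for Top2a and 1.07 for Cdk1. With all its probes averaged Ccna2 was at 0.37. Side by side, Cdk1 had 0.68 after 1 injection against untreated hypophysectomised males, and -3.35 in hypophysectomised against intact males. Both comparisons contain hypophysectomised males.

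After 2 injections the calls lay among G1, replication, checkpoint and spindle genes. Of 40 tested genes 5 rose and 6 fell, where 30.8% of all probes tested were called, 15% higher and 15.8% lower. The share of these genes called was thus no higher than that of all probes. With median centring limma called none. The median log2 ratio was -0.00. Limma called none of the 8 tested mitotic genes, none had an unadjusted p under 0.05, and their values lay between -0.07 and 0.17. With the scanner's processed signals Ccnb2 (0.39, adjusted p = 0.00874) and Cdc25b (0.53, adjusted p = 0.0216) were called higher. Cdk1 had 0.06 and -0.01, Mki67 had 0.13 and -0.04, and Ccna2 had 0.15 and 0.07.

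The genes that rose after 2 injections included G1 and replication genes. The inhibitor Cdkn1a, a target of p53, had 1.90 and 1.48, with a fitted value of 1.69 ± 0.32 (adjusted p = 0.00474). Ccnd1 had 1.10 and 0.44 (0.77 ± 0.25, adjusted p = 0.0453), and its value was 0.37 without replicate 1 and 1.18 without replicate 2, called in neither. Of the replication genes Mcm7 had 0.26 and 0.44, Mcm4 had 0.43 and 0.22, and Pcna had 0.52 and 0.04. Mcm4 was at 0.75 with the scanner's processed signals. With median centring in place of loess Pcna was at -0.12 and the call and its direction were lost.

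The genes that fell after 2 injections came from the chromosome, checkpoint and spindle group and from the replication group. The checkpoint gene Bub1b was not called, at -0.05 ± 0.14 (adjusted p = 0.870 by limma). Bub1, a kinase of the spindle checkpoint, had -1.01 and -0.76, with a fitted value of -0.88 ± 0.12 (adjusted p = 9.88e-04). Birc5 had -0.66 and -0.53, Stmn1 had -0.69 and -0.38, and Mad2l1 had -0.28 and -0.46. Of the replication genes Rrm1 had -0.31 and -0.34 and Prim1 had -0.17 and -0.31. Bub1 and Birc5 were called without either replicate. Without replicate 1 Rrm1 and Mad2l1 were called with them, and without replicate 2 Cdkn1a and Pcna were. Birc5 was at -1.11 with the scanner's processed signals.

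Set against 1 injection, 2 injections gave lower values for 11 of 40 genes and a higher value for Cdkn1a, where 10.4% of all probes tested were called, 5.56% higher and 4.82% lower. The 2 groups also differ in the time since the first injection, which cannot be told apart from the number of injections. Both are set against untreated hypophysectomised males, and deviations of their same-numbered arrays correlated at 0.74. The fit takes the arrays as independent, so the p-values of this difference are approximate. Cdkn1a differed by 1.84 ± 0.46 (adjusted p = 0.0413), Mki67 by -0.92 ± 0.18, Bub1 by -0.84 ± 0.18, Cdk1 by -0.66 ± 0.16 and Ccna2 by -0.58 ± 0.15. The others called lower were Top2a, Ube2c, Mad2l1, Prim1, Birc5, Kif20a and Rrm1, between -0.54 and -0.32. None of the 12 calls held when either replicate was left out of both comparisons. With the replicate number as a block 5 were called, Prim1, Ube2c, Bub1, Mad2l1 and Mki67. The count was 2 without a dye term, with Bub1 and Mad2l1 called, 7 without the filter on dim probes and 1, Mki67, with the 4 arrays fitted alone.

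**Figure D4:**
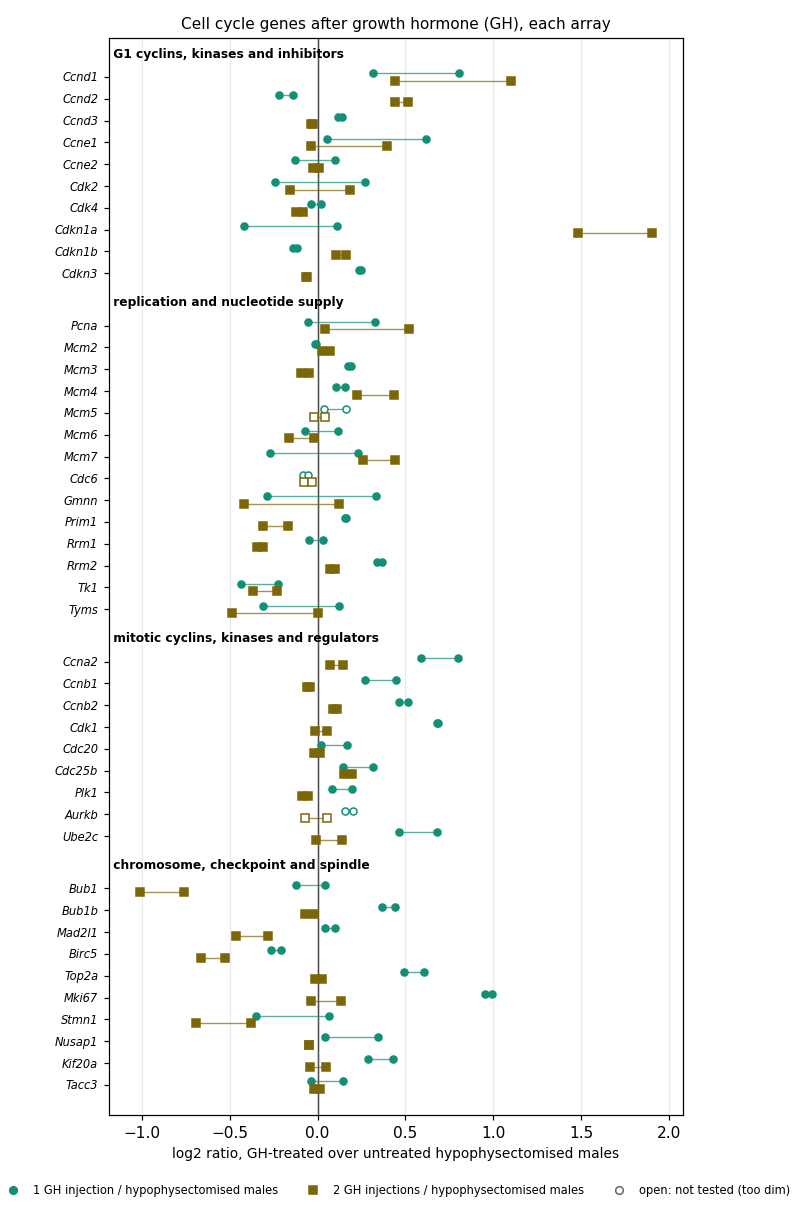
Log2 ratios of hypophysectomised males given GH over untreated hypophysectomised males on each array (horizontal axis), after 1 injection (circles) and 2 injections (squares), with the 2 arrays of a comparison joined by a line and open symbols for genes too dim to be tested. Mki67 lies at 0.99 and 0.95 after 1 injection and at 0.13 and -0.04 after 2, and Cdkn1a at 1.90 and 1.48 after 2.

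Other genes of the same processes, listed apart from the 44, moved as follows. Of 37 tested mitosis and cytokinesis genes, 32 fell and 2 rose in hypophysectomised against intact males, with a median of -0.88. They include Ect2, which directs the cleavage furrow, with -3.06 and -3.24, Ckap2, a microtubule-binding protein, with -2.80 and -2.51, and the checkpoint kinase Ttk with -2.22 and -2.99. The exceptions were Wee1, a kinase that restrains Cdk1, at 0.77 and the kinetochore gene Zwint at 0.29. In females 23 of 33 fell and 1 rose, with a median of -0.44, and in intact males against intact females 27 of 38 were higher, with a median of 0.44. After 1 GH injection Ect2 (0.38 ± 0.08) and the securin gene Pttg1 (0.27 ± 0.05) rose and Wee1 fell (-0.65 ± 0.13) among 30 tested, a smaller share than the 14.3% of all probes called. After 2 injections 2 of 33 rose and 6 fell, also a smaller share than the 30.8% of all probes, with Wee1 at -1.09 ± 0.13 and the spindle gene Aspm at -0.96 and -1.05 on the 2 arrays.

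Of 34 further replication, licensing and nucleotide genes, 13 fell and 5 rose in hypophysectomised against intact males, with a median of -0.12. In that comparison 37.5% of all probes were called. Chaf1b, a histone chaperone subunit, had -0.96 ± 0.07 and Exo1, a DNA exonuclease, -0.82 ± 0.07. In females 9 of 33 fell and 7 rose, where 36.3% of all probes were called. The checkpoint kinase Chek1 went against the sex order of the mitotic genes, with -0.67 ± 0.06 in males, -1.24 ± 0.06 in females and -1.07 ± 0.06 in intact males over intact females. After 2 GH injections 14 of 34 fell and 4 rose, where 30.8% of all probes were called. The flap endonuclease Fen1 was at 1.13 ± 0.07 and Timeless, a replication fork protein, at -0.80 ± 0.07.

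Of 27 tested genes of G1 control, cell cycle exit and the p53 response, 6 rose and 8 fell in hypophysectomised against intact males. In that comparison 37.5% of all probes were called. The list was led by the growth arrest gene Gadd45g at -2.51 ± 0.26 and the inhibitor Cdkn1c at 1.12 ± 0.15. After 1 GH injection 3 rose, Gadd45g by 3.03 ± 0.26, the growth-promoting transcription factor Myc by 3.01 ± 0.07 and Gadd45a by 2.49 ± 0.37, and 4 fell. After 2 injections 11 rose and 5 fell, with a median of 0.27, and Myc was at 1.99 ± 0.07 and the antiproliferative gene Btg2 at 2.00 ± 0.22. Of all probes 14.3% were called after 1 injection and 30.8% after 2. 

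**Figure D5:**
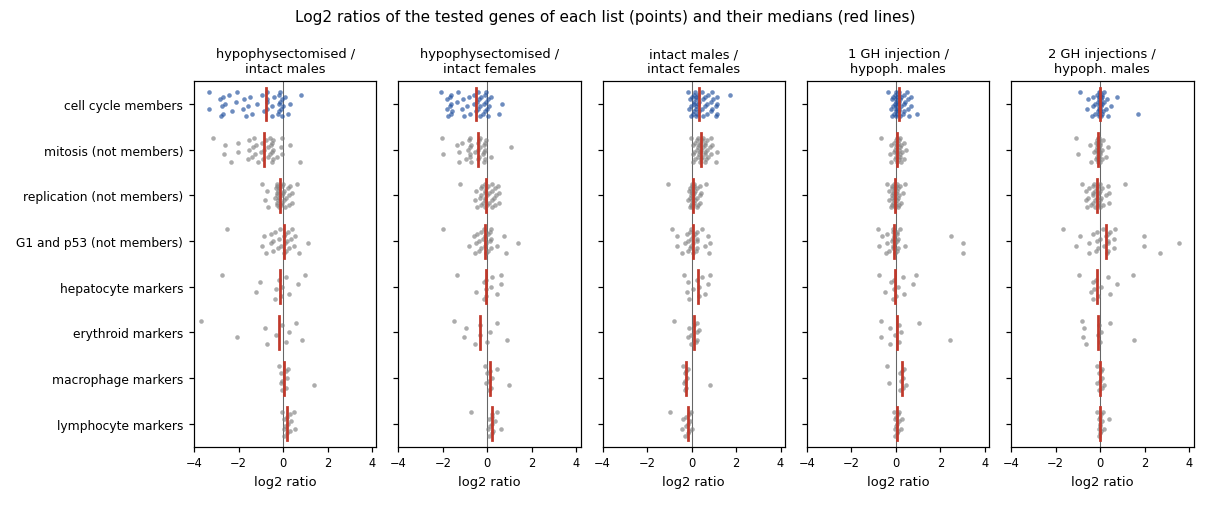
Log2 ratios (horizontal axes) of the tested genes of each list, with the genes described here in blue, other lists in grey and red lines at the medians, for 5 comparisons. In hypophysectomised over intact males the medians are -0.79 for the genes described here, -0.88 for further mitosis genes and -0.12 for further replication genes.

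Markers of other cells moved with some of these results, and their part in them was not tested. Among 10 tested erythroid markers, 5 fell and 3 rose in hypophysectomised against intact males, where 37.5% of all probes were called. The beta globin Hbb had -3.69 and Alas2, the erythroid enzyme of haem synthesis, -2.07, while Gypc and Epb4.2 rose and Gata1, Klf1 and Rhag were too dim to test. In females 6 of 10 fell and 2 rose, where 36.3% of all probes were called, with Hbb at -1.48 and Alas2 at -0.96. After 1 GH injection Hbb was at 2.45 and Alas2 at 1.03, with 3 of 10 markers higher and 2 lower. After 2 injections Hbb was at 1.54 and Alas2 at 0.47, with 2 higher and 4 lower. Of all probes 14.3% were called after 1 injection and 30.8% after 2. In intact males over intact females Hbb (0.20) and Alas2 (0.24) were not called, and Hemgn (0.22) was higher and Slc4a1 (-0.79) lower among 11. Between hypophysectomised males and females Hbb (-2.30) and Alas2 were called lower and Tfrc (0.36) higher among 10. Of all probes 15.5% were called between intact sexes and 0.949% between hypophysectomised sexes.

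Of 13 tested lymphocyte markers, 5 rose in hypophysectomised against intact males, where 37.5% of all probes were called, and in females 5 rose and 1 fell, where 36.3% were. In intact males over intact females Cd3g, Ptprc and Zap70 were lower and none was higher, where 15.5% of all probes were called. Macrophage markers were lower in intact males than in intact females for 6 of 10 and higher for 1, opposite to the mitotic genes there. Between hypophysectomised males and females Cd163 (-0.44), Clec4f (-0.41) and Emr1 (-0.32) were lower among 10, where 0.949% of all probes were called. After 1 GH injection 6 of 10 macrophage markers were higher and 1 was lower, where 14.3% of all probes were called. The Kupffer cell lectin Clec4f was at 0.44. After 2 injections limma called none of the 10, and 1 had an unadjusted p under 0.05. Of 12 hepatocyte markers, 2 rose and 3 fell in hypophysectomised against intact males, a share near the 37.5% of all probes called there. The apolipoprotein Apoa1 was at -2.74 and the transcription factor Hnf4a at 0.68. The Alb probe had no usable spot on 1 array of 3 comparisons, and its fitted values there rest on the other array.

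Further lists gave these counts, where 37.5% of all probes were called in hypophysectomised against intact males and 36.3% in females. In hypophysectomised against intact males 6 of 9 endothelial markers rose and Eng fell, 4 of 5 bile duct markers rose with Cldn7 at 1.87, and 3 of 11 stellate and fibroblast markers rose and 2 fell. In females 5 of 9 endothelial and 3 of 5 bile duct markers rose, and of 11 stellate and fibroblast markers Dcn rose and 2 fell. Of the granulocyte markers, S100a8 and S100a9 rose in both sexes, at 0.96 and 1.07 in males and at 1.41 and 1.26 in females. In males 6 were tested and 1 other marker was called lower, and in females 5 were tested. After GH S100a8 and S100a9 rose by 0.77 and 0.89 with 1 injection and by 1.41 and 1.32 with 2, among 7 tested. Of all probes 14.3% were called after 1 injection and 30.8% after 2.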

How the data were processed

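Liver RNA pools were compared on 12 2-colour arrays, 2 dye-swapped arrays for each of 6 comparisons. Per the file headers, spot and local background intensities and their flags came from Agilent Feature Extraction 9.1.3.1 on array design 014879. The deposited log10 ratios of red over green are its background-subtracted, dye-normalised values. The authors deposited a log2 value table, which matched channel 2 over channel 1 of those processed signals.

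From the mean spot and median background intensities, limma 3.58.1 (R 4.3.3) applied normexp with an offset of 50 and within-array loess, leaving out control and outlier spots, and spots of a probe were averaged. One linear model with 6 comparison terms and a dye term was fitted to all 12 arrays, with 5 residual degrees of freedom. Moderated p-values were adjusted by Benjamini-Hochberg over the probes of each comparison, with 0.05 as the threshold. The brightest probe stood for a gene. Sex dependence and 2 against 1 GH injections were contrasts of this fit.

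The members, lists and tests were chosen with earlier results of these data known. By the rule for naming, up to 8 called members of largest absolute log2 ratio per comparison, and any called against the direction of most, have values on both arrays. The text adds other members so that each is accounted for. Alternatives covered the dye term, normalisation, background, dim-probe filter, probe choice, slide, replicate number and arrays left out. Per the series' design text, the 2 arrays of a comparison hold different pools, except that each GH group is 1 pool on both of its arrays.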

Additional observations from a re-analysis of the deposited data

Results flagged for a closer look

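The change with hypophysectomy differed between the sexes for 22 genes by limma's test of the difference. Each was more negative in males, and the male minus female differences follow on the log2 scale. Among mitotic cyclins, kinases and regulators they were -1.33 for Cdk1, -1.27 for Ube2c, -1.12 for Ccnb2, -1.09 for Ccnb1, -1.06 for Ccna2, -0.86 for Plk1 and -0.70 for Cdc20. Among chromosome, checkpoint and spindle genes they were -1.08 for Stmn1, -1.05 for Top2a, -0.94 for Kif20a, -0.84 for Bub1b, -0.78 for Mki67, -0.37 for Mad2l1, -0.32 for Tacc3 and -0.32 for Birc5. Among replication genes they were -1.68 for Rrm2, -0.48 for Mcm6, -0.28 for Mcm3 and -0.23 for Rrm1. Among G1 genes they were -1.10 for Cdkn3, -0.90 for Ccnd1 and -0.68 for Ccne1. Ccnd1 lay nearest the threshold (adjusted p = 0.0478).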

How the results depend on the processing

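Of 62 named values tried in 1040 alternatives, 1039 kept their direction and 155 of these were no longer past the threshold. The exception was Pcna after 2 GH injections, at -0.12 under median centring. Settings that changed the dye term, dim-probe filter, slide, replicate block or prior variance, or fitted arrays alone, left the values as they were. In those settings a direction could not change. Median centring moved the counts of genes called most, to 17 in hypophysectomised against intact males, 12 in females, 1 between intact sexes, 0 after 1 and 0 after 2 GH injections, 2 for sex dependence and 0 for 2 against 1 injection. It called 0% to 1.52% of all probes and put their median between -0.132 and 0.105. Processed signals, the authors' value table and closing the loop of RNAs each called 1 gene between hypophysectomised sexes. With the arrays of a comparison alone, 3 genes were called after 1 injection, 4 after 2 and 1 for 2 against 1, for which no dye term gave 2 and no filter 7. Leaving out a replicate gave 29 to 30 genes in hypophysectomised males, 21 in females, 13 to 14 between intact sexes, 0 between hypophysectomised sexes, 0 to 2 after 1 injection, 4 after 2 and 0 for 2 against 1. For sex dependence, leaving out 1 replicate of all 4 comparisons leaves 1 residual degree of freedom, from GH arrays, and was tried but gave no usable p-values, so its counts are not given. Leaving out 1 array at a time, chosen after seeing the data, gave 17 to 27. Slide as a fixed term and a prior variance by intensity were also added then. With the replicate block 5 genes were called for 2 against 1 injection, and other counts stayed within 1.5 times. The labels do not say whether arrays of one number share a pool. Deviations of same-numbered arrays correlated between -0.68 and 0.86 over 15 pairs of comparisons, over 0.1 in 6. Of 9 pairs that share an RNA group, 8 had the sign that its side of the ratios gives, and the 6 that share none ranged from -0.54 to 0.42. Slide and replicate number coincide in 4 comparisons and cannot be told apart. The number of arrays, 2 for each comparison, limits the precision, and Cdc6 was too dim to test.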
